A study of Mus musculus and Rattus norvegicus with 32 samples.

Results

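The genes described here are 10 regulators and end points of fuel burning in the heart: the nuclear receptors Ppara, Ppard and Pparg, the coactivators Ppargc1a and Ppargc1b, the estrogen-related receptors Esrra, Esrrb and Esrrg, and the uncoupling proteins Ucp2 and Ucp3. They were found by gene symbol, and all 10 were present among the 55487 mouse genes and among the 32883 rat genes of the count tables. The group was chosen by a measured value, since Ucp2 was higher in METTL5-cKO than in control hearts at 3 months, and the question is whether the regulators moved with it. Values of the 3-month genotype comparison are therefore given as a description, without p-values for the members.

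RNA was sequenced from C57BL/6 mouse hearts and from Sprague Dawley neonatal rat ventricular cardiomyocytes (NRVMs), with 4 libraries in each of 8 groups. The hearts were from METTL5-KO and control mice at 1 month, from METTL5-cKO and control mice at 3 months, and from METTL5-cKO and control mice of the same labelled age, 4 weeks after transverse aortic constriction (TAC), a narrowing of the aorta that loads the left ventricle. METTL5, a methyltransferase of the 18S ribosomal RNA, was lost from the whole animal in METTL5-KO mice, and in METTL5-cKO mice floxed exons 2 to 4 were removed by Cre from the Myh6 promoter, which acts in cardiomyocytes but not in the other cells of the heart. The controls were littermates, and whether they carried Cre or the floxed allele is not given in the sources used here. The NRVMs, from postnatal day 2 by the labels, received adenovirus with METTL5 (AdMETTL5) or GFP (AdGFP), and both groups were treated with 20 μM phenylephrine (PE), a hypertrophic agonist, for 24 h.

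PPARs are receptors for fatty acids and their derivatives. They bind DNA as pairs with retinoid X receptors and switch on genes of fatty acid uptake and oxidation, with Ppara the classic cardiac member, Ppard widely expressed and Pparg best known from fat cells. The estrogen-related receptors bind no known natural hormone and drive genes of mitochondrial respiration. PGC-1α (Ppargc1a) and PGC-1β (Ppargc1b) bind to both receptor families and raise their activity, and through them mitochondrial content. Ucp2 and Ucp3 are carriers of the inner mitochondrial membrane, Ucp3 mainly of striated muscle and Ucp2 also abundant in macrophages and other immune cells, and Ucp3 is a textbook PPAR target of heart and muscle.

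Ucp2 and Ucp3 are neighbours on the same strand, and their starts are shown because the genes took different courses in the same hearts. On GRCm38, Ucp3 (ENSMUSG00000032942) lies at chr7:100472990-100486432 and Ucp2 (ENSMUSG00000033685) at chr7:100493337-100502020, both on the plus strand, with 6904 bases between them. The 300-base windows around their annotated starts, from RefSeq on GRCm38.p6, lie at chr7:100493108-100493407 for Ucp2 and chr7:100472741-100473040 for Ucp3. They read 5′ to 3′ on the plus strand as follows, with the nuclear receptor half-site AGGTCA in capitals.
Ucp2 promoter: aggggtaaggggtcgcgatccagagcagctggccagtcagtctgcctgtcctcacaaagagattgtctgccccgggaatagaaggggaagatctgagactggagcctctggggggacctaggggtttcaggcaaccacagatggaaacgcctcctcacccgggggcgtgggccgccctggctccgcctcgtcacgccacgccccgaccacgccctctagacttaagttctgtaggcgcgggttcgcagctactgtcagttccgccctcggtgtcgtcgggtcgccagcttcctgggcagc
Ucp3 promoter: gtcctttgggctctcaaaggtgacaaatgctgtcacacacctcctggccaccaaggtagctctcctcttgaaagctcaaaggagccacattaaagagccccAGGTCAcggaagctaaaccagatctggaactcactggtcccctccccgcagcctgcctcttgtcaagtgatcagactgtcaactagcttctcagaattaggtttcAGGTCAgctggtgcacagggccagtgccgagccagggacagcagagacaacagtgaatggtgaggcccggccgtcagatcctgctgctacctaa
The half-site was searched on both strands. It occurred at 2 places before the Ucp3 start, from -149 to -144 and from -44 to -39, and at none in the Ucp2 window. Among 32851 promoter windows of the same length, 16.3% held AGGTCA. Windows were found for 9 of the 10 genes, 15 windows in all, and besides Ucp3 only the first and the second window of Pparg held AGGTCA, once each. The longer ERR element TCAAGGTCA, which contains the half-site, was in 0.423% of all windows, and the PPAR element DR1 in its strict form, the half-site repeated after 1 free base, was in 0.0396%. Neither was in any of the 15 windows, and Ppargc1b had no window to search. A match of letters is a description and not a bound site.

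The heart libraries held 19899033 to 21804907 counts each, the AdGFP libraries 17344430 to 18085339 and the AdMETTL5 libraries 14324700 to 14642431. Mettl5 itself did not separate the heart groups, with 4.51 to 5.94 CPM (counts scaled to a common library total) in control and 5.26 to 6.71 CPM in METTL5-KO hearts at 1 month. The corresponding ranges were 6.87 to 8.12 and 5.61 to 7.28 CPM at 3 months, and 5.62 to 7.14 and 5.60 to 7.32 CPM after TAC. A count over the whole gene includes bases outside the deleted exons and shares exon sequence with Ssb on the other strand, so it does not check the genotypes, and the group names are those of the labels. In NRVMs Mettl5 was 16.2 to 18.03 CPM with AdGFP and 19.1 to 23.0 CPM with AdMETTL5. By the methods of the study the virus carried the human METTL5 coding sequence, and reads were aligned to the rat genome. This count of the rat gene therefore does not give the level of the added METTL5. Of the cell type markers, those of cardiomyocytes were high in every heart library, with 15959 to 31217 CPM summed over 6 genes in the groups without TAC. At least 4 of the 5 adipocyte markers were at 0 in each group, and Ucp1, the brown fat uncoupling protein, was at 0 in all 32 libraries, which allows up to 0.151 CPM in a heart library. The list of 4 brown adipocyte markers (Ucp1, Cidea, Elovl3 and Dio2) was not at 0, and summed to 8.70 to 38.6 CPM in hearts and 30.8 to 48.0 CPM in NRVMs. Of its 2 genes tested after TAC, Dio2 was called higher in METTL5-cKO hearts. Libraries 1 of both 3-month groups were the highest of their groups in Ppara, Ppargc1a and Esrrg, by little for Esrrg in METTL5-cKO hearts, and values that rest on them are also given without both.

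Levels of different genes were compared per kilobase of exon in the control hearts at 3 months. The length joined all annotated exons of a gene, whichever transcripts the heart makes, so the order depends on the annotation. Esrra was the highest regulator at 19.9 ± 1.11 CPM per kb (SD, n = 4), with libraries from 18.9 to 21.4. Ppargc1a followed at 12.4 ± 5.21 CPM per kb, and its highest library, at 19.8, reached into the range of Esrra. Ucp3 at 6.35 ± 2.34 and Ucp2 at 5.98 ± 0.582 CPM per kb did not differ beyond their spread on these lengths, 3135 and 6989 bases. With a shorter length Ucp2 would stand higher. In CPM without length, Ucp3 was 19.9 ± 7.32 and Ucp2 41.8 ± 4.07. The other receptors and the second coactivator were lower, in the order Ppard, Pparg, Esrrb, Ppargc1b, Esrrg and Ppara, with means from 3.87 down to 2.13 CPM per kb. Each of these overlapped with its neighbours in that order. The annotation has no exon overlap for 8 of the 10 genes. Exons of Ucp2 overlap those of Dnajb13 on the other strand, and exons of Esrra overlap Trmt112 on the other strand and the microRNA gene Mir6990 on its own. Whether the counting used strand is not given in the sources used here. Dnajb13 was at most 0.859 CPM in any heart library, and Trmt112 was between 7.87 and 15.5 CPM. At 3 months Dnajb13 was 0.286 to 0.859 CPM in METTL5-cKO and 0 to 0.246 CPM in control hearts, apart in the direction of Ucp2. Its ranges overlapped between genotypes at 1 month and after TAC, and its part in the Ucp2 values was not tested.

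**Figure D1:**
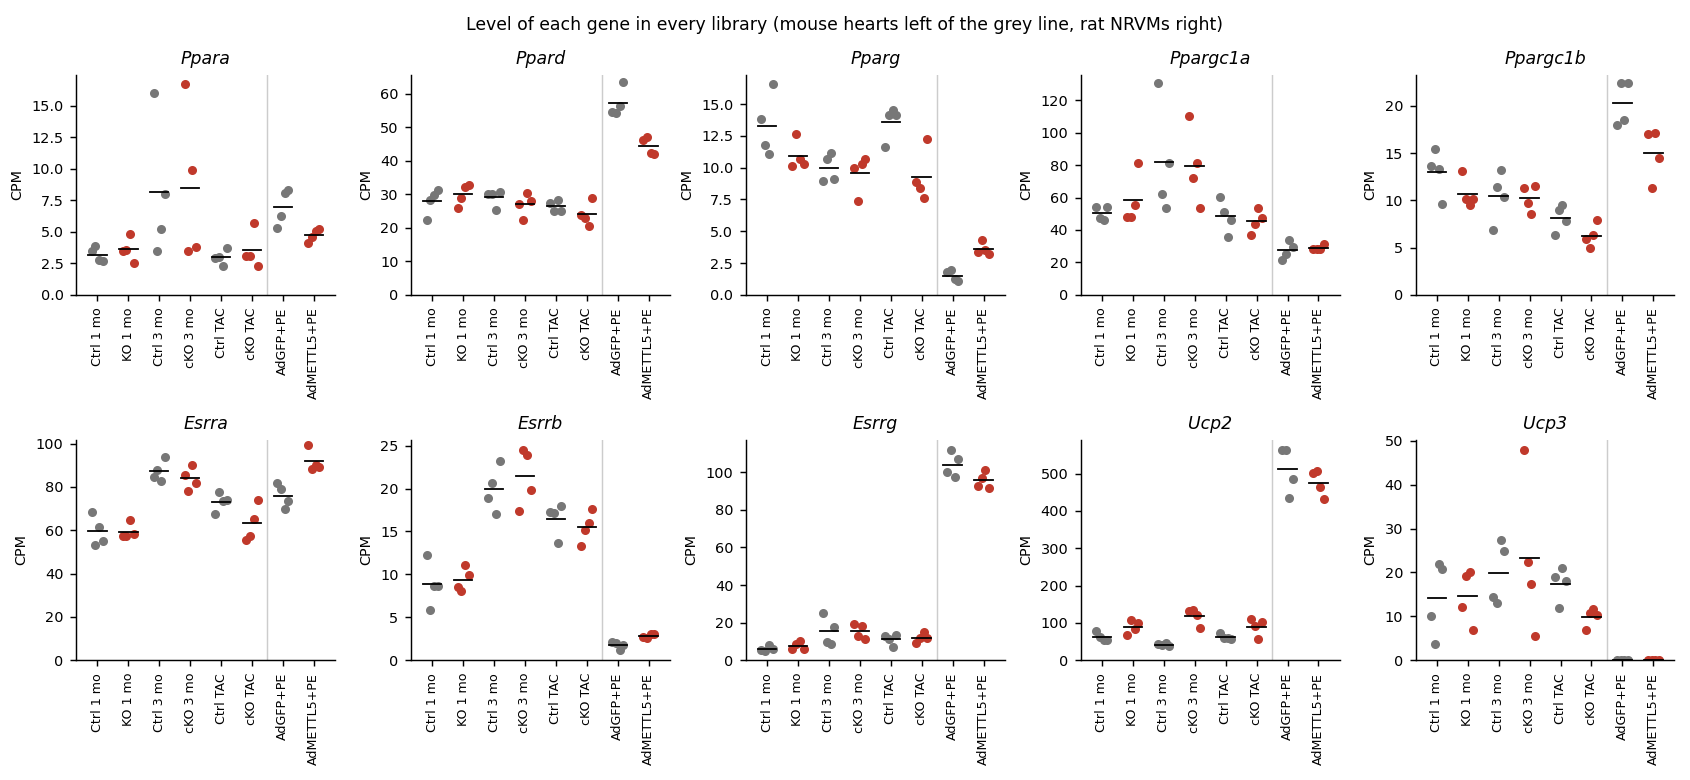
CPM of the 10 genes in every library (linear axes from 0), with 1 point per library and a line at the mean of each group of 4; grey points are control or AdGFP libraries and red points METTL5-KO, METTL5-cKO or AdMETTL5 libraries. Ucp2 in METTL5-cKO hearts at 3 months, from 86.0 to 134 CPM, lies above the control hearts, from 36.9 to 46.2 CPM, while the 9 other genes overlap there.

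At 3 months, Ucp2 was the only one of the 10 genes whose groups were apart, and this value chose the group. Ucp2 was 43.9, 40.3, 46.2 and 36.9 CPM in the 4 control hearts and 131, 134, 119.8 and 86.0 CPM in the 4 METTL5-cKO hearts. The lowest METTL5-cKO heart was thus above the highest control heart, and the log2 fold change was 1.49 (SE 0.146). Groups that do not overlap were found for 4.23% of all genes in this comparison. For the regulators, log2 fold changes lay between -0.11 for Ppard and 0.10 for Esrrb, with overlapping groups for each of them. Ppargc1a, which encodes PGC-1α, was 81.9 ± 34.3 CPM in control and 79.4 ± 23.7 CPM in METTL5-cKO hearts (SD, n = 4), and its log2 fold change was -0.04 (SE 0.291). Ppara had 0.06 (SE 0.571) and Esrrg 0.00 (SE 0.330), the widest errors among the regulators. Esrra had -0.06 (SE 0.0816), the narrowest.

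These wide errors came with libraries that differed within both groups. Ppara was 16.04, 3.44, 5.19 and 8.01 CPM in the control hearts and 16.8, 3.51, 9.93 and 3.76 CPM in the METTL5-cKO hearts. Ppargc1a was 130.4, 62.2, 53.6 and 81.5 CPM in control and 110.5, 72.0, 81.5 and 53.7 CPM in METTL5-cKO hearts. Esrrg was 25.2, 9.64, 8.63 and 17.5 CPM in control and 19.0, 13.1, 17.97 and 11.05 CPM in METTL5-cKO hearts. In each genotype the first library was the highest for all 3 genes, so the difference between hearts of 1 genotype was larger than the difference between genotypes. Ucp3, next to Ucp2 on the chromosome, was 14.3, 12.98, 27.5 and 24.8 CPM in control and 47.8, 22.4, 17.3 and 5.52 CPM in METTL5-cKO hearts. The METTL5-cKO hearts held both the highest and the lowest Ucp3 value, and the log2 fold change was 0.23 (SE 0.520). Without both libraries 1, Ucp3 turned to -0.53 (SE 0.472), while Ppara had 0.05, Ppargc1a 0.07, Esrrg 0.23 and Ucp2 1.46.

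Over all genes, edgeR called 0.0732% at 3 months, and 0 of the 9 genes other than Ucp2 were among them. Since this comparison chose the group, nothing is read from that count. Macrophage markers, 9 genes, summed to 149 to 202 CPM in control and 179.6 to 268 CPM in METTL5-cKO hearts, and none was at 0. The log2 fold changes of the 9 markers were all positive, with a median of 0.29. Fibroblast markers, 6 genes, summed to 313 to 419 and 412 to 524 CPM, with 6 of 6 positive and a median of 0.51. Endothelial markers, 5 genes, summed to 423 to 668 and 331 to 503 CPM, and smooth muscle markers, 4 genes, to 82.3 to 118 and 60.3 to 98.3 CPM, with 4 of 4 negative and a median of -0.57. In bulk tissue, more cells of a type and more RNA per cell cannot be told apart, and the part of these marker lists in the Ucp2 difference was not tested.

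At 1 month, in mice without METTL5 in any tissue, no member was called, with all 10 tested and 0.00612% of all genes called by edgeR. DESeq2 also called 0 of the 10. At an unadjusted p under 0.05 the count was 1, Ucp2. The groups overlapped for every member, where 3.01% of all genes had groups apart. Ucp2 was 78.1, 63.0, 54.5 and 52.6 CPM in control and 66.5, 108, 84.1 and 99.1 CPM in METTL5-KO hearts. Its groups overlapped through METTL5-KO library 1, which was under the highest control. The log2 fold change was 0.53 (SE 0.179, edgeR adjusted p = 0.973). Among the regulators the values ran from -0.28 for Pparg (SE 0.143) to 0.34 for Esrrg (SE 0.211), none passing the test. Ppargc1a was 50.4 ± 4.16 CPM in control and 58.4 ± 15.9 CPM in METTL5-KO hearts (SD, n = 4), with 1 METTL5-KO library at 81.6 CPM and the other three between 48.1 and 55.5. Macrophage markers summed to 147 to 315 CPM in control and 179 to 212 CPM in METTL5-KO hearts.

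**Figure D2:**
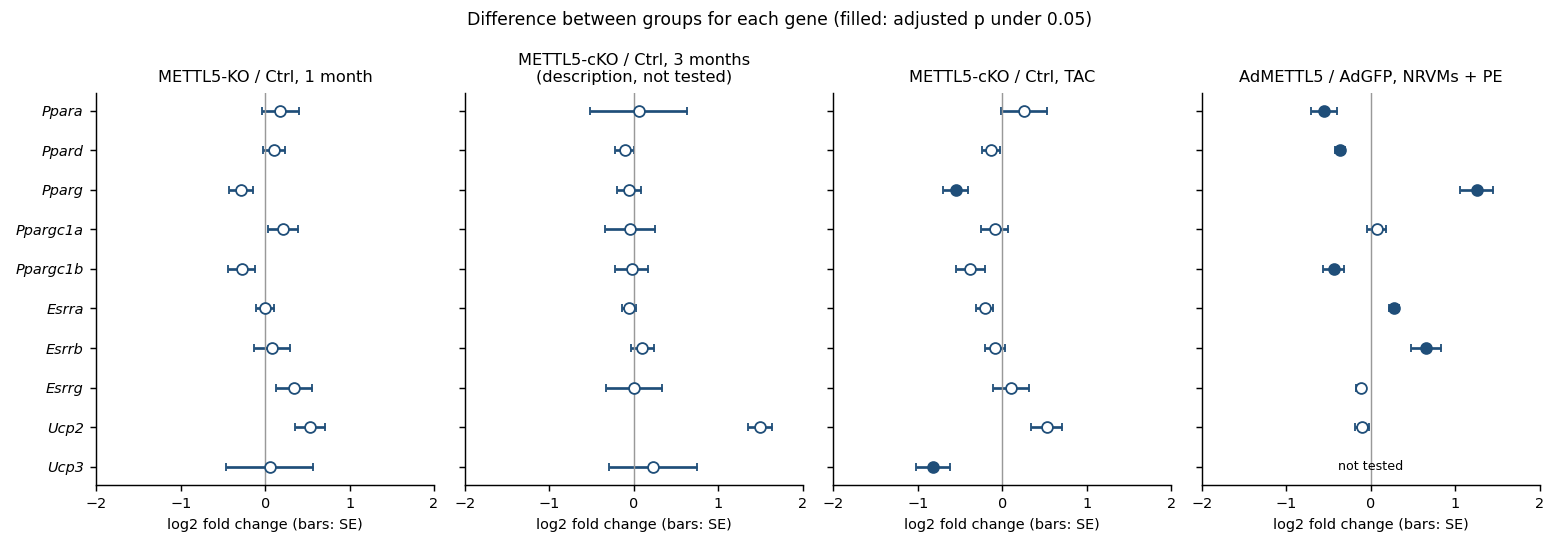
Log2 fold change of each gene between groups (x axis; bars are 1 SE) in the 3 heart comparisons and in NRVMs; filled points passed edgeR's test at an adjusted p under 0.05, and the 3-month panel is a description without a test. Ucp2 stands at 0.53, 1.49 and 0.52 in the hearts and at -0.10 in NRVMs, and no regulator is above 0.34 in any heart panel.

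After TAC, Ucp3 and Pparg were lower in METTL5-cKO than in control hearts. Both fell, and no member rose, out of 10 tested. Of all genes, 12.7% were called in this comparison, 6.57% higher and 6.10% lower, so 2 of 10 is near that share. The share itself moved from 2.88% without control library 4 to 23.4% without METTL5-cKO library 4. Ucp3, the striated muscle uncoupling protein, was 18.8, 11.9, 21.0 and 18.05 CPM in the 4 control hearts and 6.84, 10.8, 11.6 and 10.4 CPM in the 4 METTL5-cKO hearts. Every METTL5-cKO heart was under every control heart, and the log2 fold change was -0.82 (SE 0.200, edgeR adjusted p = 0.0310). Groups were apart for 1 of the 10 members, against 18.6% of all genes, and 9.16% were apart with METTL5-cKO lower. Pparg, the receptor known from fat cells, was 11.7, 14.1, 14.5 and 14.1 CPM in control and 8.86, 8.43, 7.60 and 12.3 CPM in METTL5-cKO hearts. Its log2 fold change was -0.55 (SE 0.148, edgeR adjusted p = 0.0405), and METTL5-cKO library 4 lay above the lowest control. Both calls depended on single libraries. Pparg passed in 2 of the 8 fits that left out 1 library, with adjusted p up to 0.115, and Ucp3 in 2 of 8, up to 0.0875. Pparg kept its call only without control library 1 or METTL5-cKO library 4, and Ucp3 only without control library 2 or METTL5-cKO library 4. Without a filter on low counts neither passed (adjusted p = 0.0802 for Pparg and 0.0722 for Ucp3, both from edgeR). With library size alone as the scale Ucp3 had -0.67 and missed the threshold (edgeR adjusted p = 0.0587), while Pparg had -0.42 (adjusted p = 0.0460). DESeq2 called 3 members, Pparg, Ucp3 and Ucp2.

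Ucp2 was higher in most METTL5-cKO hearts after TAC but did not pass the test. It was 72.3, 60.3, 59.3 and 57.4 CPM in control and 109, 90.9, 57.4 and 101 CPM in METTL5-cKO hearts. In 3 of 4 METTL5-cKO hearts Ucp2 was above all controls, and METTL5-cKO library 3 was at the level of the lowest control. The log2 fold change was 0.52 (SE 0.179, edgeR adjusted p = 0.0820). Without METTL5-cKO library 3 it was 0.69 (edgeR adjusted p = 0.0206), and DESeq2 on all libraries gave 0.54 (adjusted p = 0.0270). With library size alone as the scale it was 0.66 (edgeR adjusted p = 0.0244). Macrophage markers were higher in METTL5-cKO hearts here too, with 293 to 385 CPM against 218 to 291, and 3 of the 9 genes (Adgre1, Mrc1 and Lyz2) were called higher. Their part in the Ucp2 values was not tested. METTL5-cKO library 3, the low one for Ucp2, had 312 CPM of these markers, and no marker was at 0 in a whole group.

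The other regulators did not pass after TAC. Ppargc1b was lower, 6.30, 8.996, 9.47 and 7.81 CPM in control and 5.92, 4.92, 6.31 and 7.94 CPM in METTL5-cKO hearts, with a log2 fold change of -0.38 (SE 0.168, edgeR adjusted p = 0.160). Esrra was 67.5, 77.6, 73.3 and 73.7 CPM in control and 55.5, 57.5, 65.3 and 74.1 CPM in METTL5-cKO hearts, where library 4 lay above all controls but 1. Its log2 fold change was -0.21 (SE 0.0998, edgeR adjusted p = 0.184), and it passed only without METTL5-cKO library 4 (-0.29, adjusted p = 0.0347). Ppargc1a had -0.09 (SE 0.162), Ppard -0.14 (SE 0.107), Esrrb -0.09 (SE 0.113), Esrrg 0.10 (SE 0.212) and Ppara 0.26 (SE 0.273), with adjusted p from 0.415 to 0.796 in edgeR. The groups overlapped for all 5 genes, and the value of Esrrb turned to 0.06 with library size alone as the scale.

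Some genes that these regulators are known to act on fell after TAC in METTL5-cKO hearts, and most did not pass the test. Of 23 tested fatty acid genes known as PPAR targets, 6 fell and 1 rose, with a median log2 fold change of -0.36, where the median of all tested genes was -0.00. Of 22 tested mitochondrial genes known as PGC-1 or ERR targets, 7 fell and 0 rose, with a median of -0.32, where 6.10% of all genes were called lower. The median over the members was -0.12. Of the fatty acid genes, Cpt2, a carnitine transferase of the inner mitochondrial membrane, fell from 123 ± 17.4 to 77.8 ± 11.2 CPM (SD, n = 4, log2 fold change -0.66, edgeR adjusted p = 0.0159). Acot2, a mitochondrial acyl-CoA thioesterase, fell by 0.66 on the log2 scale (adjusted p = 0.0171) and Acadvl, which starts the oxidation of very long chains, by 0.57 (adjusted p = 0.0194). Slc27a1, Acot1 and Cpt1b were the other 3 that fell. The gene that rose was Pdk4, the kinase that shuts pyruvate dehydrogenase, from 125.4 ± 26.1 to 243 ± 97.6 CPM (log2 fold change 0.95, adjusted p = 0.0496), and its groups overlapped.

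Among the mitochondrial genes, Cox7a1, the muscle form of a cytochrome oxidase subunit, fell from 472 ± 40.5 to 221 ± 63.9 CPM (SD, n = 4, log2 fold change -1.09, edgeR adjusted p = 0.00994). Fndc5, the irisin precursor and a PGC-1α target of muscle, fell by 0.65 on the log2 scale (adjusted p = 0.0139). Sod2, the mitochondrial superoxide dismutase, fell by 0.45 (adjusted p = 0.0223). Of 20 receptor partners and co-factors, 1 fell, the retinoid X receptor Rxrg (log2 fold change -0.60, adjusted p = 0.0225), and 0 rose. Of 4 tested mitochondrial carriers related to the uncoupling proteins (Slc25a14, Slc25a27, Slc25a30 and Slc25a5), none was called by edgeR or DESeq2 and 1, Slc25a27, had an unadjusted p under 0.05. Scaling by library size alone raised the median of all genes by 0.14 in log2, and the calls then split 79.7% higher in place of 51.9%. The fatty acid genes then had 4 lower and 1 higher, with a median of -0.21, and the mitochondrial genes 7 lower, with a median of -0.18.

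The cell type markers moved in the same hearts. Cardiomyocyte markers summed to 24262 to 28385 CPM in control and 18000 to 23478 CPM in METTL5-cKO hearts after TAC, and fibroblast markers to 431 to 529 and 651 to 2034 CPM. Of the 6 cardiomyocyte genes only 1 was called lower, though all 6 log2 fold changes were negative, with a median of -0.30. Of the 6 fibroblast genes 5 were called higher, and of the 5 endothelial genes 4 were called lower. The METTL5-cKO heart nearest to the controls in cardiomyocyte, fibroblast and endothelial markers was library 4, which was also the highest of its group for Pparg, Esrra and Ppargc1b. For Ucp3 it was not the nearest, at 10.4 CPM against 11.6 in library 3. The part of these markers in the lower values was not tested.

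**Figure D3:**
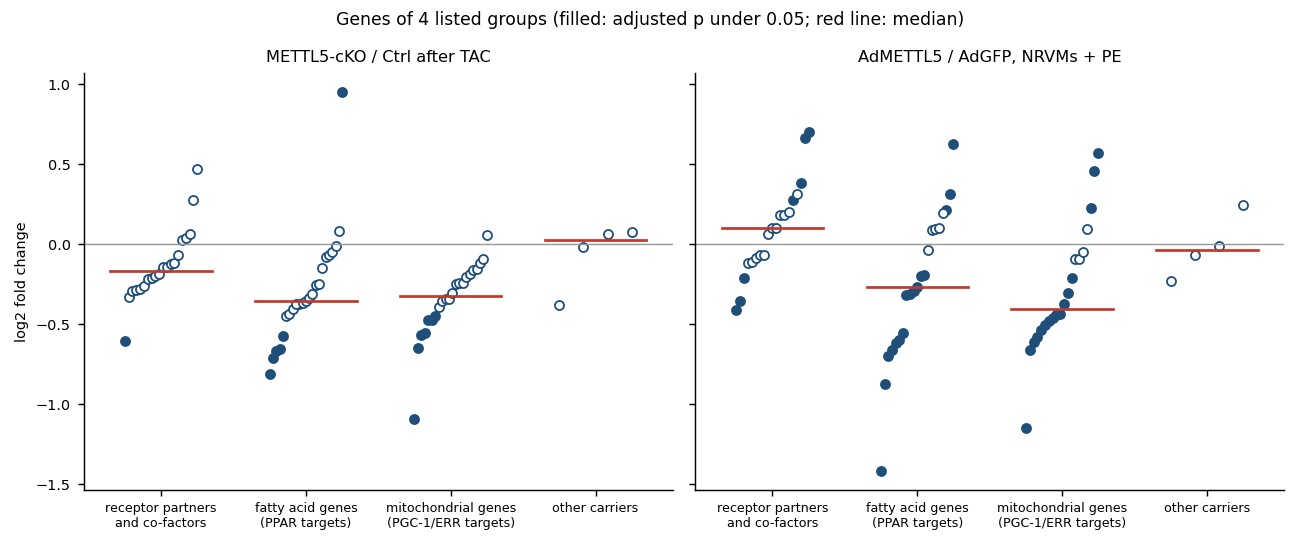
Log2 fold change (y axis) of the tested genes of 4 lists in METTL5-cKO against control hearts after TAC (left) and in AdMETTL5 against AdGFP NRVMs (right); each point is 1 gene, filled where edgeR's adjusted p was under 0.05, and red lines are list medians. The medians of the fatty acid and mitochondrial genes lie below 0 in both panels, at -0.36 and -0.32 after TAC and at -0.27 and -0.40 in NRVMs.

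The TAC hearts were also set against the 3-month hearts of the same genotype, in 1 fit of 16 libraries. No sham-operated hearts were analysed here, so surgery, any difference in age and the separate tables cannot be told apart. In METTL5-cKO hearts, 4 of the 9 members other than Ucp2 were lower after TAC and 0 were higher, where 19.1% of all genes were called and 8.89% were called lower. Esrra fell from a mean of 83.6 ± 5.66 CPM to 63.5 ± 8.22 CPM (SD over 4 hearts), with a log2 fold change of -0.40 (SE 0.0893, edgeR adjusted p = 0.00593). Ppargc1b fell from 10.2 ± 1.33 to 6.30 ± 1.23 CPM (log2 fold change -0.70, adjusted p = 0.0179). Esrrb, a receptor best known from early development, fell from 21.3 ± 3.44 to 15.6 ± 1.73 CPM (-0.45, adjusted p = 0.0247). Ppargc1a fell from 79.2 ± 23.9 to 45.6 ± 7.17 CPM (-0.80, adjusted p = 0.0437). The groups were apart for Esrra and Ppargc1b, 2 of 9, against 9.53% of all genes apart in that direction.

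Of these 4 calls, Esrra alone held in every fit that left out 1 library. Ppargc1a held in 7 of 16 and was lost without control 3-month library 4, METTL5-cKO 3-month library 1, 2 or 3, control TAC library 2 or 4, or METTL5-cKO TAC library 1, 2 or 4. It also missed the threshold with library size alone as the scale (edgeR adjusted p = 0.0639). Ppargc1a without METTL5-cKO 3-month library 1, the high one, had -0.59 (adjusted p = 0.148), and without both 3-month libraries 1 it had -0.59 as well (adjusted p = 0.0553, edgeR). Without those 2 libraries the other 3 kept adjusted p from 0.0154 to 0.0206. The fewest calls, 1, came without METTL5-cKO TAC library 1 or library 2, where Ppargc1b and Esrrb were lost too, and 2 came without METTL5-cKO 3-month library 2 or 3, where Esrrb was lost. Ppara was at -1.24 (SE 0.511, edgeR adjusted p = 0.102), from 3.51 to 16.8 CPM at 3 months and from 2.30 to 5.70 CPM after TAC. Without both 3-month libraries 1 it had -0.68 (adjusted p = 0.273). Ucp3 was at -1.22 (SE 0.449, edgeR adjusted p = 0.0691), and passed under DESeq2 (adjusted p = 0.0292) and without METTL5-cKO 3-month library 4 (adjusted p = 0.00670). Without both 3-month libraries 1 it had -0.60 (adjusted p = 0.318, edgeR).

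In control hearts no member was called between TAC and 3 months (edgeR, 9 tested), where 0.516% of all genes were, and DESeq2 also called 0. At an unadjusted p under 0.05 there were 4, Esrra, Ppara, Pparg and Ppargc1a. The fold changes were of the same order for Ppargc1a (-0.76, SE 0.261), Ppara (-1.46, SE 0.523) and Esrra (-0.26, SE 0.0891). Without both 3-month libraries 1 they were -0.45, -0.91 and -0.27. Groups were apart for 2 of 9, Pparg higher after TAC and Esrra lower, against 11.7% of all genes. Whether the genotypes differed in their change was tested by an interaction term, and 0 of 9 members passed (edgeR and DESeq2), against 0.00586% of all genes. Over all genes the interaction had 679 calls without METTL5-cKO TAC library 4, and control TAC against 3 months had 223 without that library and 11 when control TAC library 3 was left out. The nearest was Pparg at -0.48 (SE 0.205, edgeR adjusted p = 0.372), the only one with an unadjusted p under 0.05. Ppargc1a, called in METTL5-cKO hearts alone, had an interaction of -0.03 (SE 0.367), and -0.15 without both 3-month libraries 1, so its change was not shown to differ between genotypes.

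For Ucp2 the same values are a description, since the 3-month libraries chose it. It was higher after TAC than at 3 months in control hearts, by 0.58 (SE 0.175) in log2, and lower in METTL5-cKO hearts, with -0.38 (SE 0.173). The difference of these changes was -0.96 (SE 0.246), and -0.93 without both 3-month libraries 1. Macrophage markers were higher after TAC in both genotypes, with 149 to 202 CPM at 3 months and 218 to 291 CPM after TAC in control hearts, 9 of 9 positive with a median of 0.51 and 0 called by edgeR (6 at an unadjusted p under 0.05, 3 by DESeq2). In METTL5-cKO hearts they were 179.6 to 268 and 293 to 385 CPM, 9 of 9 positive with a median of 0.55 and 5 called, and their part in the Ucp2 values was not tested. Both comparisons share their libraries with the genotype comparisons above. Per library, control hearts went from 36.9 to 46.2 CPM at 3 months to 57.4 to 72.3 CPM after TAC without overlap, and METTL5-cKO hearts from 86.0 to 134 CPM to 57.4 to 109 CPM with overlap. The ratio of Ucp2 to Ucp3 CPM in 1 heart was 1.49 to 3.10 in control and 2.74 to 15.6 in METTL5-cKO hearts at 3 months. After TAC it was 2.82 to 5.09 and 4.96 to 15.97.

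**Figure D4:**
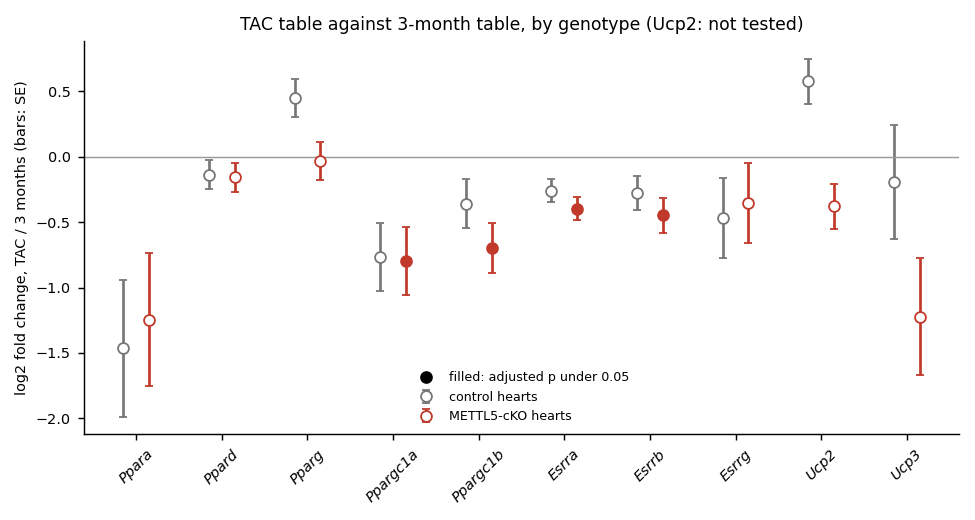
Log2 fold change of each gene between TAC and 3-month hearts (y axis; bars are 1 SE), in control hearts (grey) and METTL5-cKO hearts (red); filled points passed edgeR's test at an adjusted p under 0.05, and Ucp2 was not tested. The 4 filled points are Ppargc1a, Ppargc1b, Esrra and Esrrb in METTL5-cKO hearts, and Ucp2 lies at 0.58 in control and at -0.38 in METTL5-cKO hearts.

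In METTL5-cKO hearts after TAC against 3 months, 11 of 23 fatty acid genes fell and 0 rose, and 8 of 22 mitochondrial genes fell and 0 rose, where 8.89% of all genes were called lower. Of 20 partners, 4 were lower, Ncoa1, Rxra, Rxrg and Med1, and 1 was higher, Twist1, a repressor of PGC-1α activity in brown fat. In control hearts edgeR called none of these genes, with 6 fatty acid, 3 mitochondrial and 9 partner genes at an unadjusted p under 0.05. DESeq2 called 0, 1 (Gabpa) and 3 (Med1, Ncoa1 and Rxra) of them in the control hearts. In the interaction edgeR called none, with 5, 4 and 1 at an unadjusted p under 0.05, and DESeq2 called 1, Sod2. Cardiomyocyte markers in METTL5-cKO hearts summed to 25512 to 29811 CPM at 3 months and 18000 to 23478 CPM after TAC. The list was mixed, with 3 of its 6 genes called lower and 1 called higher. Fibroblast markers summed to 412 to 524 and 651 to 2034 CPM, with 5 of 6 genes called higher. The part of both marker lists in the values above was not tested. The carriers had 0 calls by either tool in all 3 of these contrasts, and 0 at an unadjusted p under 0.05.

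At 1 month none of the 4 lists had a gene called by edgeR or DESeq2, and at an unadjusted p under 0.05 there were 2 fatty acid genes (Acot2 and Angptl4), 1 partner (Ncor1), 0 mitochondrial genes and 0 carriers. At 3 months, as a description, the median log2 fold changes were -0.05 for the fatty acid genes and -0.09 for the mitochondrial genes.

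In NRVMs with PE, AdMETTL5 changed most of the regulators, in both directions. Of 9 members tested, 3 rose (Pparg, Esrra and Esrrb) and 3 fell (Ppara, Ppard and Ppargc1b). Most of the transcriptome was called here, 52.8% of all genes, with 27.1% higher and 25.7% lower, so 6 of 9 is near that share. The groups were apart for the same 6 genes, against 48.4% of all genes. Ucp3 had no count in any of the 8 libraries, which allows up to 0.209 CPM in 1 library, and was not tested. All 6 kept their calls in each of the 8 fits that left out 1 library.

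Of the PPARs, Pparg had the largest change, from 1.78, 1.93, 1.23 and 1.10 CPM with AdGFP to 3.37, 4.30, 3.54 and 3.18 CPM with AdMETTL5. The level was low, with 19 to 64 counts per library, and the log2 fold change was 1.25 (SE 0.191, edgeR adjusted p = 0.00017). Ppara was 5.34, 6.26, 8.05 and 8.31 CPM with AdGFP and 4.12, 4.63, 5.05 and 5.21 CPM with AdMETTL5 (log2 fold change -0.56, SE 0.150, edgeR adjusted p = 0.00803). Ppard was 54.6, 54.2, 56.3 and 63.5 CPM and 46.3, 46.9, 42.2 and 42.0 CPM (-0.37, SE 0.0642, edgeR adjusted p = 0.000468). The cardiac and the ubiquitous receptor thus fell while Pparg rose, each with no AdMETTL5 library inside the AdGFP range.

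Of the coactivators, Ppargc1b fell and Ppargc1a did not pass the test. Ppargc1b was 17.97, 22.4, 18.5 and 22.4 CPM with AdGFP and 17.0, 11.3, 17.1 and 14.4 CPM with AdMETTL5 (log2 fold change -0.44, SE 0.125, edgeR adjusted p = 0.0105). With library size alone as the scale it had -0.31 and missed the threshold (edgeR adjusted p = 0.0631). Ppargc1a was 27.5 ± 5.42 CPM with AdGFP and 28.9 ± 1.49 CPM with AdMETTL5 (SD, n = 4), and the log2 fold change was 0.07 (SE 0.115, edgeR adjusted p = 0.649). Its AdGFP libraries, from 21.4 to 33.9 CPM, spanned the whole AdMETTL5 range.

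Of the estrogen-related receptors, Esrra was 81.7, 78.8, 70.0 and 73.4 CPM with AdGFP and 99.5, 88.5, 90.1 and 89.3 CPM with AdMETTL5. Its log2 fold change was 0.27 (SE 0.0591, edgeR adjusted p = 0.00203), and Trmt112, whose gene overlaps it in the mouse, was at -0.10 (SE 0.0564). Esrrb, at 21 to 47 counts per library, rose from 1.80 ± 0.409 to 2.83 ± 0.203 CPM (0.65, SE 0.178, edgeR adjusted p = 0.00840). Esrrg was 104 ± 6.51 and 95.8 ± 4.21 CPM, a log2 fold change of -0.12 (SE 0.0540, edgeR adjusted p = 0.0776), and passed under DESeq2 (adjusted p = 0.0368) and without AdGFP library 3 (adjusted p = 0.0370). With library size alone as the scale it turned to 0.01. Ucp2 was 564, 563, 435 and 485 CPM with AdGFP and 501, 508, 464 and 432 CPM with AdMETTL5. The groups overlapped, with a log2 fold change of -0.10 (SE 0.0838, edgeR adjusted p = 0.318), which turned to 0.03 with library size alone as the scale. Dnajb13, whose gene overlaps Ucp2 in the mouse, was at 0.88 (SE 0.276, edgeR adjusted p = 0.0173), with at most 1.41 CPM.

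The target genes fell more often than they rose in NRVMs, where 25.7% of all genes were called lower and 27.1% higher. Of 21 tested fatty acid genes 13 fell and 3 rose (Slc27a1, Cpt1a and Cpt1b), with a median log2 fold change of -0.27. Of 20 tested mitochondrial genes 13 fell and 3 rose (Gabpa, Nrf1 and Ckmt2), with a median of -0.40, where the median of all tested genes was -0.00. Scaling by library size alone raised the median of all genes by 0.13, gave 71.5% of calls as higher in place of 51.4%, and left 10 lower and 6 higher fatty acid genes and 12 lower and 4 higher mitochondrial genes. Cpt2 fell from 59.3 ± 2.47 to 37.5 ± 0.993 CPM (SD, n = 4, log2 fold change -0.66, edgeR adjusted p = 5.56e-07), and Mlycd, which removes the malonyl-CoA that blocks fatty acid entry, fell by 0.70 on the log2 scale (adjusted p = 7.75e-07). Fabp3, the fatty acid carrier of heart muscle, fell by 0.87 (adjusted p = 9.35e-07). Atp5f1b, the catalytic subunit of ATP synthase, fell from 2812 ± 172 to 1780.0 ± 55.2 CPM (-0.66, adjusted p = 1.57e-06), Cox6a2, a cytochrome oxidase subunit of striated muscle, by 1.15 (adjusted p = 1.72e-06), and Uqcrc1, of complex III, by 0.58 (adjusted p = 2.09e-06).

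Of the mitochondrial genes that rose, Nrf1 (log2 fold change 0.23, edgeR adjusted p = 0.00199) and Gabpa (0.46, adjusted p = 1.89e-05) encode transcription factors of nuclear genes for mitochondria, and Ckmt2 (0.57, adjusted p = 0.0206) is the mitochondrial creatine kinase of striated muscle. Of 19 tested partners 4 rose, Prkaa1, Crebbp, Nrip1 and Ncoa3, and 3 fell, Hdac3, Prkaa2 and Rxrb. With library size alone as the scale the partners were 10 higher and 2 lower. Prkaa1 and Prkaa2, the catalytic subunits of AMP kinase, went opposite ways, with log2 fold changes of 0.70 (adjusted p = 1.69e-07) and -0.41 (adjusted p = 0.00053, both edgeR). Of 4 tested carriers none was called by edgeR or DESeq2, and 0 had an unadjusted p under 0.05. Slc25a14 was called higher with library size alone as the scale.

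Cell type markers moved with the virus, in cultures that had been pre-plated to deplete fibroblasts. Cardiomyocyte markers summed to 14226 to 16254 CPM with AdGFP and 6772 to 7421 CPM with AdMETTL5, and all 6 genes were lower. Fibroblast markers summed to 9418 to 9906 and 7549 to 8316 CPM, with 5 of 6 genes lower. Macrophage markers, 8 of them in the rat table, summed to 95.6 to 113 and 67.9 to 83.4 CPM, and C1qb was at 0 in the AdMETTL5 group. Endothelial markers summed to 34.9 to 38.5 CPM with AdGFP and 47.8 to 52.8 CPM with AdMETTL5. Of the 3 tested genes only Kdr was called, higher with a log2 fold change of 0.86 (edgeR adjusted p = 6.13e-06). Tek had -0.13 and Cdh5 0.23, neither called, and Emcn was at 0 with AdMETTL5. The higher sum therefore does not stand for the whole endothelial list. Smooth muscle markers summed to 2677 to 3393 and 3204 to 3705 CPM, and Acta2 and Tagln, 2 of the 4, were called higher. The part of these markers in the changes of the regulators and their targets was not tested.

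Across the 24 heart libraries, after the mean of each group was subtracted from log2 CPM, Ucp2 had low correlations with every regulator. Its Pearson r was largest with Ppargc1a, at 0.16, and with Pparg, at 0.13, and the others lay between -0.12 and 0.04. These pooled values covered opposite ones in the tables. In the 16 libraries without the 3-month hearts and in the 8 at 3 months, r with Ucp2 was -0.43 and 0.33 for Ppara, 0.18 and -0.45 for Ppard, 0.30 and -0.33 for Pparg, and 0.02 and 0.40 for Ppargc1a. With Ucp3 it was 0.07 over 24 libraries and 0.77 in the 8 libraries at 3 months. Of the 45 pairs of members, 4 had r over 0.5, and the share over all pairs of genes was not computed. For Ppargc1a, the 95th percentile of r over 14077 genes was 0.67, so high values were common. Esrrg had r = 0.74 with Ppara and 0.70 with Ppargc1a, and Ppara and Ppargc1a had 0.63, under that percentile. In the 8 libraries at 3 months these were 0.87, 0.95 and 0.89 (0.81, 0.93 and 0.68 in the 6 without both libraries 1), and in the other 16 they were 0.51, 0.32 and 0.04, so the values of the last pair rested on the 3-month hearts. Esrra and Esrrb had r = 0.63, with 0.70 in the 16 libraries without the 3-month hearts. Ppargc1b ran against Ppargc1a (r = -0.53) and Esrrg (r = -0.59). These 2 values were -0.74 and -0.81 at 3 months, and weaker in the other 16 libraries, at -0.32 and -0.38. Libraries of 1 table share their processing, and the values are a description.

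**Figure D5:**
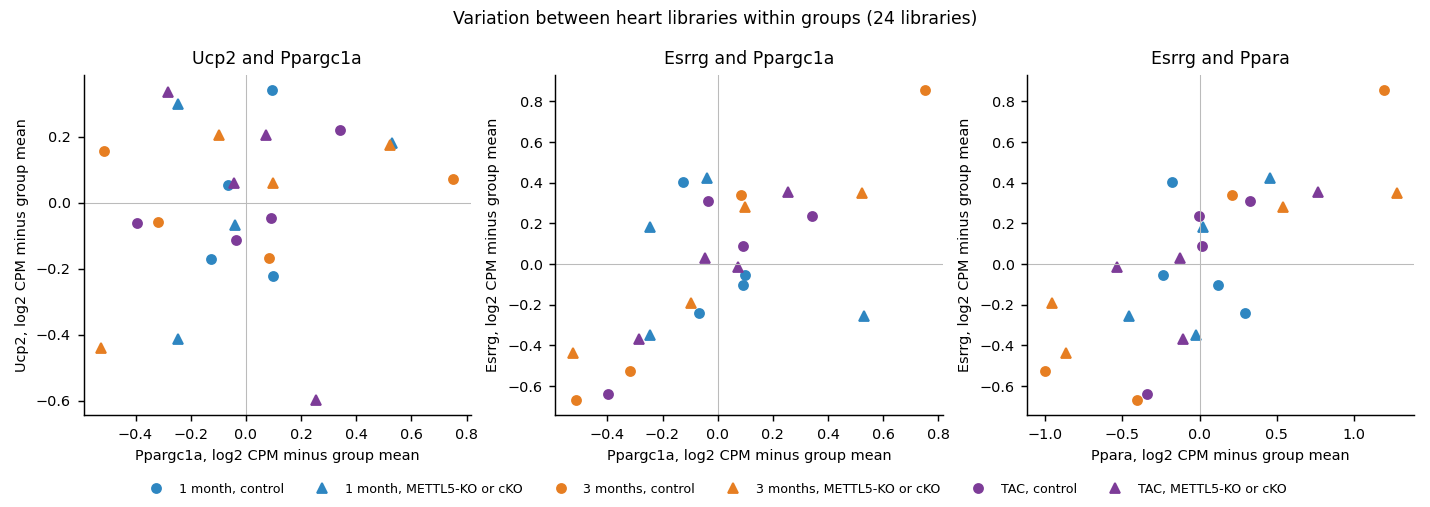
Log2 CPM minus the mean of the library's group for pairs of genes in the 24 heart libraries; colours are the 1-month, 3-month and TAC tables, circles control and triangles METTL5-KO or METTL5-cKO hearts. Ucp2 has a low correlation with Ppargc1a (r = 0.16), while Esrrg follows Ppargc1a (r = 0.70) and Ppara (r = 0.74), with the 3-month hearts at both ends. The 95th percentile of r with Ppargc1a over 14077 genes was 0.67.

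The genes whose variation within groups was most like that of Ucp2 and Ppargc1a were ranked among 14077 genes with at least 10 counts in every heart library. For Ucp2 they were Thoc5 (r = 0.77), of the complex that exports messenger RNA, Susd6 (0.74) and Rnps1 (0.72), a splicing regulator. For Ppargc1a they were Taco1 (0.91), a translational activator of mitochondrial cytochrome oxidase, Tarsl2 (0.91), a threonyl-tRNA synthetase, and Mreg (0.90). The 95th percentile of r over all ranked genes was 0.36 for Ucp2 and 0.67 for Ppargc1a, so high values of r were more common for Ppargc1a.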

How the data were processed

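RNA-seq libraries, 24 from mouse hearts and 8 from NRVMs, were analysed, 4 per group. Per the labels and the methods of the study, the authors aligned reads with HISAT2 2.0.4 to GRCm38 or Rnor_6.0 and deposited estimated counts per gene from StringTie 2.1.4 as whole numbers, without scaling. Strandedness is not given in the sources used here. Columns were matched to samples at 1 month and to groups elsewhere, so library numbers outside the 1-month table are only names. Nothing in the labels says that libraries of a group came from separate NRVM cultures, so p-values measure the spread between these libraries. The closest pair of libraries, AdMETTL5 1 and 2, had a chi-square over its degrees of freedom of 2.16, so none was counted as a duplicate. AdGFP libraries 1 and 2 were at 3.32 and libraries 3 and 4 at 3.06, with 8.73 to 11.4 across these pairs. The closest pair of hearts was at 4.80. Whether the closer NRVM libraries share a culture is not given in the sources used here. The members and the gene lists were chosen with earlier results of these data known.

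Each table was fitted across all its genes in edgeR 4.0.16 (R 4.3.3, limma 3.58.1) with TMM scaling, filterByExpr (minimum count 10, total 15) and the quasi-likelihood test, and p-values were adjusted by Benjamini-Hochberg over all genes tested. A gene was called at an adjusted p under 0.05. The SE of a log2 fold change was derived from the test, as its absolute value over the square root of the quasi-likelihood F statistic. The 3-month and TAC tables were also fitted together (16 libraries) for the contrasts across tables and the interaction. Reported levels are CPM on TMM-scaled library sizes. Means in contrasts across tables use the joint scaling. An interval or limit from counts covers counting error only, and the limit for a count of 0 is 3 counts in a library. Positions and exon lengths are from GENCODE vM21, and rat positions were not used here. All members were named in each comparison, and from each list the 3 genes with the smallest adjusted p among those called after TAC and in NRVMs, with any gene where a direction held 5 or fewer calls. The lists held 20 partners, 24 fatty acid genes, 23 mitochondrial genes and 5 carriers. The cell types were read from marker lists.

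Alternatives were DESeq2 1.42.0 (Wald test), its size factors in edgeR, library size alone, no filter, at least 10 counts in every sample, a minimum absolute log2 fold change of 1 (the rule of the study), leaving out each library, the replicate number as a block, and the joint fit for the TAC genotype comparison. Leaving out both 3-month libraries 1, in the fits and in the 3-month correlations, was added after seeing the data. The steps were tested on simulated data with planted changes larger than those of the members in the main fits. Recovery of changes as small as those of the members was not tested.

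At 1 month the columns carry replicate numbers in both groups. The correlations of same-numbered deviations were 0.239, 0.120, -0.107 and 0.0782, so the numbers were not taken to pair the samples.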

Additional observations from a re-analysis of the deposited data

Results flagged for a closer look

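In 78 groups of 4 libraries (10 genes in 8 groups, without Ucp3 in NRVMs), a library far from its group was looked for with Dixon's ratio, and 5 were found, where chance gives about 3.9. Ppard in control library 3 at 3 months was 25.4 CPM, against 30.0 to 30.7 in the others. Pparg in control library 1 after TAC was 11.7 CPM, against 14.1 to 14.5, and Pparg was called lower in METTL5-cKO hearts without this library as well. Ppargc1a in AdMETTL5 library 4 was 31.1 CPM, against 28.0 to 28.2. Esrra in METTL5-KO library 3 at 1 month was 64.6 CPM, against 57.1 to 58.2. Esrra in AdMETTL5 library 1 was 99.5 CPM, against 88.5 to 90.1, and the call of Esrra in NRVMs held without it. The high Ppara, Ppargc1a and Esrrg of libraries 1 at 3 months were not among the 5.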

How the results depend on the processing

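The counts of called members at 1 month, at 3 months, in control TAC against 3 months and in the interaction stayed at 0 under every alternative run. Ucp2 was left out of these counts except at 1 month, and nothing is read from the 3-month count. After TAC, the 2 calls became 0 with no filter on low counts, which tests more genes, and 0 with a minimum fold change, and 1 (Pparg) in the joint fit with the 3-month libraries, where Ucp3 had -0.81 (edgeR adjusted p = 0.257). Leaving out single libraries gave 0 to 3 calls. In NRVMs the 6 calls became 1 (Pparg) with the minimum fold change, and were 6 to 7 without single libraries. In METTL5-cKO TAC against 3 months the 4 calls became 2 without the filter and 0 with the minimum fold change, and were 1 to 5 without single libraries. With library size alone the 2 calls after TAC were Pparg and Ucp2. DESeq2 called 3 members after TAC, 7 in NRVMs and 5 in METTL5-cKO TAC against 3 months. After TAC it called 12 fatty acid and 10 mitochondrial genes, where edgeR called 7 and 7. Where no cause is named, it was not tested. No called value changed sign under any alternative. The replicate block at 1 month, on numbers that share only a label, gave 0 calls, with Ucp2 at 0.53 (adjusted p = 0.916), and 1 of the 4 samples matched its own number best. Over all genes, 2071 calls after TAC became 1052 without the filter and 479 to 3899 without single libraries, 12 at 3 months (66.7% higher) became 108 with DESeq2 (54.6% higher), 10 with library size alone (80% higher), 1 without the filter and 2 to 9 without single libraries, and 1 in the interaction became 231 with DESeq2 and 0 to 679 without single libraries. In control TAC against 3 months 88 became 519 with DESeq2, 47 with library size alone, 21 without the filter and 11 to 223 without single libraries, and at 1 month 1 became 13 with DESeq2 and 0 to 2 without single libraries. In METTL5-cKO TAC against 3 months 3257 became 2076 to 3873 without single libraries. Ucp3 could not be tested in NRVMs, with 0 counts in 8 libraries, and the reason for the zeros was not tested. Pparg and Esrrb were low there, at 19 to 64 and 21 to 47 counts per library.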
